A study of Homo sapiens with 8 samples.

Results

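The group described here is a set of 9 interferon-inducible genes, IFI6, IFI27, IFI27L2, IFI44, IFI44L, CMPK2, RSAD2, IFI16 and IFI35, out of 60675 genes counted in Panc10.05 cells. The genes were chosen by name, and they were picked because several had some of the largest falls in RNA when indisulam-resistant cells were on indisulam. Their levels in resistant cells on and off the drug are therefore given as a description with no test, and the same holds for every comparison that uses those libraries. Only the response of parental cells to the drug was tested, since the libraries in it played no part in the choice. CMPK2 and RSAD2 passed the filter on low counts only through the resistant cells, so for them the parental values are a description too and 7 genes were tested.

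Gene expression was measured by polyA+ RNA sequencing in 8 libraries, 2 in each of 4 groups, of a pancreatic cancer line of human origin, Panc10.05. Parental untreated cells received no drug, and parental indisulam cells received 2 µM indisulam, a sulfonamide that leads to degradation of the splicing factor RBM39, for 18 h. The resistant line was obtained by growth in rising concentrations of indisulam, with no statement that it is a single clone. Its indisulam group was kept on the drug at 2 µM without a break, and its untreated group had been taken off the drug for a drug holiday, so both resistant groups had a long exposure behind them that neither parental group had. For resistant cells, a fall or rise with the drug therefore means lower or higher in cells on it than in cells after the holiday. In the labels, A549 appears in the growth and treatment notes but Panc10.05 in each title, and the latter was taken as the line. The study describes the 2 libraries of a group as technical replicates, so p-values cover the spread between such libraries and not between separate cultures.

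Between 65266253 and 108002436 reads per library were assigned to genes. All 7 epithelial markers looked at (KRT7, KRT8, KRT18, KRT19, EPCAM, CDH1 and MUC1) were detected, and their summed level ran from 6329 to 6517 CPM (read counts scaled to a common library size) in parental and from 10817 to 12248 CPM in resistant libraries. A list of 13 markers of blood, stromal and endothelial cells summed to 1.76 to 2.39 CPM in the parental and resistant untreated libraries and to 4.56 to 4.75 CPM in resistant indisulam, where COL1A1 was the most abundant. PTPRC, CD3E, DCN and LUM had no reads in any library. In bulk RNA, fewer cells with a transcript and less of it per cell cannot be told apart.

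Interferons act through cell surface receptors and the kinases JAK1, JAK2 and TYK2. A complex that contains STAT2 and IRF9 then enters the nucleus and binds interferon-stimulated response elements, short DNA stretches built from repeats of GAAA with a short spacer. The genes switched on in this way act against viruses, sense foreign nucleic acid, or restrain the signal. The 9 genes fall into 4 kinds within this program: small mitochondrial proteins (IFI6, IFI27 and IFI27L2), the IFI44 pair (IFI44 and IFI44L), 2 enzymes of antiviral nucleotide metabolism (CMPK2 and RSAD2), and 2 proteins of nucleic acid sensing and its regulation (IFI16 and IFI35).

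The starts of the genes are shown because the same repeat recurs in several of the members. The windows are RefSeq promoters on GRCh38.p14, from 250 bases before to 50 after an annotated start, printed 5′ to 3′ along the gene. In the following 5 windows, capitals mark matches to GAAANNGAAA on either strand, and a match on the other strand reads as its reverse complement.
IFI6 (chr1:27672143-27672442, minus strand): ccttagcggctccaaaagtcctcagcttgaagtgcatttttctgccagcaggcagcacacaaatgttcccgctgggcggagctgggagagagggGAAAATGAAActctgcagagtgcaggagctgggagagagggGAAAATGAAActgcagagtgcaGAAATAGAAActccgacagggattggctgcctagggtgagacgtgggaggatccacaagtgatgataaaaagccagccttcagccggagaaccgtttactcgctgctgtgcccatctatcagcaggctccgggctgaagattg
IFI27 (chr14:94110486-94110785, plus strand): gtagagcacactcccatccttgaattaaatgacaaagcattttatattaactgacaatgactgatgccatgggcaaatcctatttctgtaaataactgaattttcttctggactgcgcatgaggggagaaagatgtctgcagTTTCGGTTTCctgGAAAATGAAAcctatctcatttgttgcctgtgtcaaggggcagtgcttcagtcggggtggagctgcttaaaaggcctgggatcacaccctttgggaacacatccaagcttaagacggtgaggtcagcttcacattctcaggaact
IFI44L (chr1:78620198-78620497, plus strand): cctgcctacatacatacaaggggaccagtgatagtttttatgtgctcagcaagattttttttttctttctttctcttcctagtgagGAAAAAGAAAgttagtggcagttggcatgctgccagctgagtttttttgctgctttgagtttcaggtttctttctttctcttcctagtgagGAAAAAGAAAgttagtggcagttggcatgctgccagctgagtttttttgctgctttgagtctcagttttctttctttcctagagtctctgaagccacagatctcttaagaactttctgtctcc
IFI44 (chr1:78649539-78649838, plus strand): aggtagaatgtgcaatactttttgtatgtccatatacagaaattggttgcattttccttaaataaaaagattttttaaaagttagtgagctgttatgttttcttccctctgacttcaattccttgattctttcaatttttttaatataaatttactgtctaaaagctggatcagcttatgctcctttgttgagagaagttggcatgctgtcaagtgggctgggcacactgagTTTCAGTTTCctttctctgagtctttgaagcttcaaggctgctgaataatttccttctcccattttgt
IFI27L2 (chr14:94129555-94129854, minus strand): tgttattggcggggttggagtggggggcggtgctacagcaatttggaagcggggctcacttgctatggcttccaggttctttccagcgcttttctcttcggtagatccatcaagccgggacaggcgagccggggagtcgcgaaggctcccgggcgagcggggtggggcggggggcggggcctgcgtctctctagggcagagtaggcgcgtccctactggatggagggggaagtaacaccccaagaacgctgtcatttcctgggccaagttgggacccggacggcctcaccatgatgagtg
All 9 members had a RefSeq window, 15 windows in all. IFI6 held 3 matches to GAAANNGAAA, which began 156, 115 and 93 bases before the start. IFI27 held 2 on opposite strands. In IFI44L the window carried the match 2 times, each within a repeated stretch that is visible in the printed sequence. IFI44 had 1 match on the other strand, and RSAD2 had 1 at the second of its starts. The paralogue IFI27L2 held none, and neither did CMPK2, IFI16 and IFI35. Among the genes with the larger drug differences in resistant cells described below, IFI6, IFI27, IFI44L and RSAD2 thus had the match and CMPK2 did not. IFI44 had it with a smaller difference. Whether the match goes with the size of the differences was not tested.

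Of all 35116 RefSeq windows, 3.57% contained GAAANNGAAA, which is 4.38% of 27305 genes, against 5 of the 9 members. Among 24 other interferon effector genes with a window, 19 had it (79.2%). Spacers of 1 and 3 bases and the pattern TTCNNNGAA, the core bound by STAT dimers, were also searched on both strands. GAAANGAAA was found in 5 members (IFI44, CMPK2, RSAD2, IFI16 and IFI35), in 3.87% of the 27305 genes and in 37.5% of the 24 effector genes. GAAANNNGAAA was found in IFI44L and RSAD2 (3.54% of all genes, 12.5% of the effector genes). TTCNNNGAA was found in IFI27 and IFI35 (9.38% of all genes, 33.3% of the effector genes). Some matches share bases: in IFI44 the matches with 1 and 2 spacer bases have a GAAA in common, as do those with 2 and 3 in RSAD2, TTCNNNGAA in IFI27 lies across both of its GAAANNGAAA matches, and in IFI35 it shares bases with GAAANGAAA. The spacers of 1 and 3 bases were added after the sequences had been seen. A match is a description of letters and does not show a bound site.

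CMPK2 and RSAD2 lie head to head on chromosome 2, and 165 bases of an RSAD2 window also belong to a CMPK2 window on the other strand. The RSAD2 window is shown for its 4 copies of GAAANGAAA, in capitals.
RSAD2 (chr2:6865635-6865934, plus strand): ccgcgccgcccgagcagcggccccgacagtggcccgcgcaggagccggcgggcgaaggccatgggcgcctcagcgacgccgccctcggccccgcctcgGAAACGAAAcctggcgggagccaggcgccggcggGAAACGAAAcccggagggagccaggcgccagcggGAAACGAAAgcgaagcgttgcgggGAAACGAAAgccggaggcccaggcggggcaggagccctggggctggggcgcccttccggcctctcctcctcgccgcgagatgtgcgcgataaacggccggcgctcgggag
The second CMPK2 start read 2 of these copies from the opposite strand. The mapped positions are drawn by distance from the start.

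**Figure D1:**
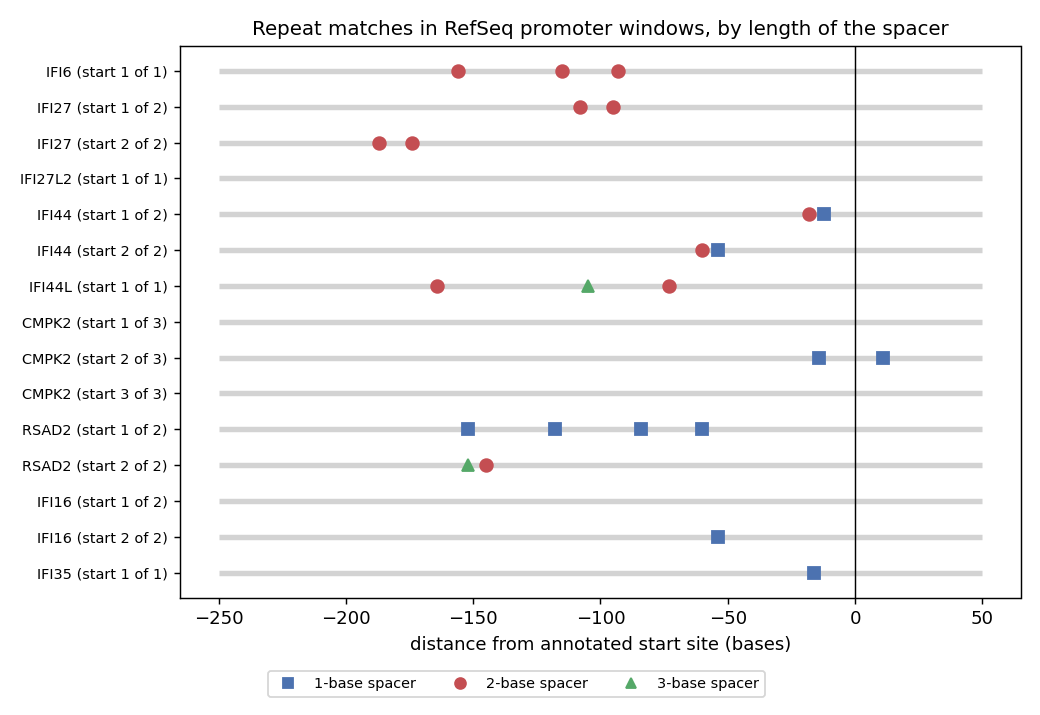
Matches to the GAAA repeats in the 15 RefSeq promoter windows of the 9 genes, by distance from the annotated start in bases (x axis). Squares, circles and triangles stand for spacers of 1, 2 and 3 bases, and each grey bar is 1 window. IFI6 shows 3 circles, the first RSAD2 start 4 squares, and IFI27L2 nothing.

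The genes occupy 6 places on 4 chromosomes (GENCODE release 44 on GRCh38). IFI44L (ENSG00000137959, chr1:78619902-78646145) and IFI44 (ENSG00000137965, chr1:78649796-78664078) are neighbours on the plus strand, 3651 bases apart. IFI27 (ENSG00000165949, chr14:94104836-94116695, plus strand) and IFI27L2 (ENSG00000119632, chr14:94127779-94130253, minus strand) also lie side by side. CMPK2 (ENSG00000134326, chr2:6840570-6866635, minus strand) and RSAD2 (ENSG00000134321, chr2:6865557-6898239, plus strand) overlap by 351 exon bases on opposite strands, which is 8% of the CMPK2 and 6.20% of the RSAD2 exon length. The strand setting of the counting is not given in the sources used here. Whether reads of that stretch were assigned to a gene or set aside as ambiguous is therefore not known. IFI6 (ENSG00000126709, chr1:27666064-27672212, minus strand) shares 216 exon bases with LINC02574, which had 3 reads in all against 9257 for IFI6. IFI16 (ENSG00000163565, chr1:158999968-159055155) and IFI35 (ENSG00000068079, chr17:43006740-43014456) are both on the plus strand, and IFI16 shares 425 exon bases with PYDC5 on the opposite strand.

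Together, the 9 genes were far more abundant in resistant cells off the drug than in parental cells or in resistant cells on the drug. Their summed level was 31.6 and 30.4 CPM in the 2 parental untreated libraries and 25.4 and 24.2 CPM in the parental indisulam libraries. It was 334.3 and 334.6 CPM in the resistant untreated libraries and 71.8 and 72.4 CPM in the resistant indisulam libraries. No libraries of different groups overlapped in this sum. Between resistant cells on and off the drug, the libraries did not overlap for any of the 9 genes, as for 73% of all tested genes.

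IFI6, a mitochondrial and endoplasmic reticulum protein that limits apoptosis, had 0.621 and 0.505 CPM without and 0.440 and 0.465 CPM with indisulam in parental cells, and 62.7 and 62.5 CPM off and 2.03 and 2.32 CPM on the drug in resistant cells. Resistant cells off the drug stood far above the other 3 groups, and resistant cells on the drug were above both parental groups. In resistant cells the RNA was lower on the drug by a log2 fold change of -4.83 (SE 0.0605), the 2nd largest fall of 16661 genes. IFI27, a mitochondrial protein of the same family, was at 0.895 and 0.852 CPM in untreated parental cells, at 44.9 and 44.4 CPM in resistant cells off the drug and at 2.67 and 2.45 CPM on it, a log2 fold change with the drug of -4.13 (SE 0.0672). With indisulam, parental cells had 0.840 and 0.555 CPM of it. Both genes thus had the same order of groups.

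IFI27L2, a further member of this family next to IFI27 on chromosome 14, did not show that order. Its level was 6.29 and 5.40 CPM without and 6.78 and 6.48 CPM with indisulam in parental cells, and 6.10 and 6.36 CPM off and 8.02 and 8.63 CPM on the drug in resistant cells. The resistant untreated libraries lay inside the range of the 4 parental libraries, and resistant indisulam was the highest group. The log2 fold change with the drug in resistant cells was 0.42 (SE 0.0769), the opposite sign to the other 8 genes. IFI27L1, a relative on the other side of IFI27, is no member of the group. It showed no difference that passed the test between untreated resistant and parental cells (log2 fold change 0.05, SE 0.0709, adjusted p = 0.55). It did not pass with the drug in resistant cells (0.03, SE 0.0729, adjusted p = 0.78), where IFI27L2 was higher. In parental cells IFI27L1 fell with the drug (-0.49, SE 0.0741, adjusted p = 5.9e-06, all from edgeR's quasi-likelihood test).

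**Figure D2:**
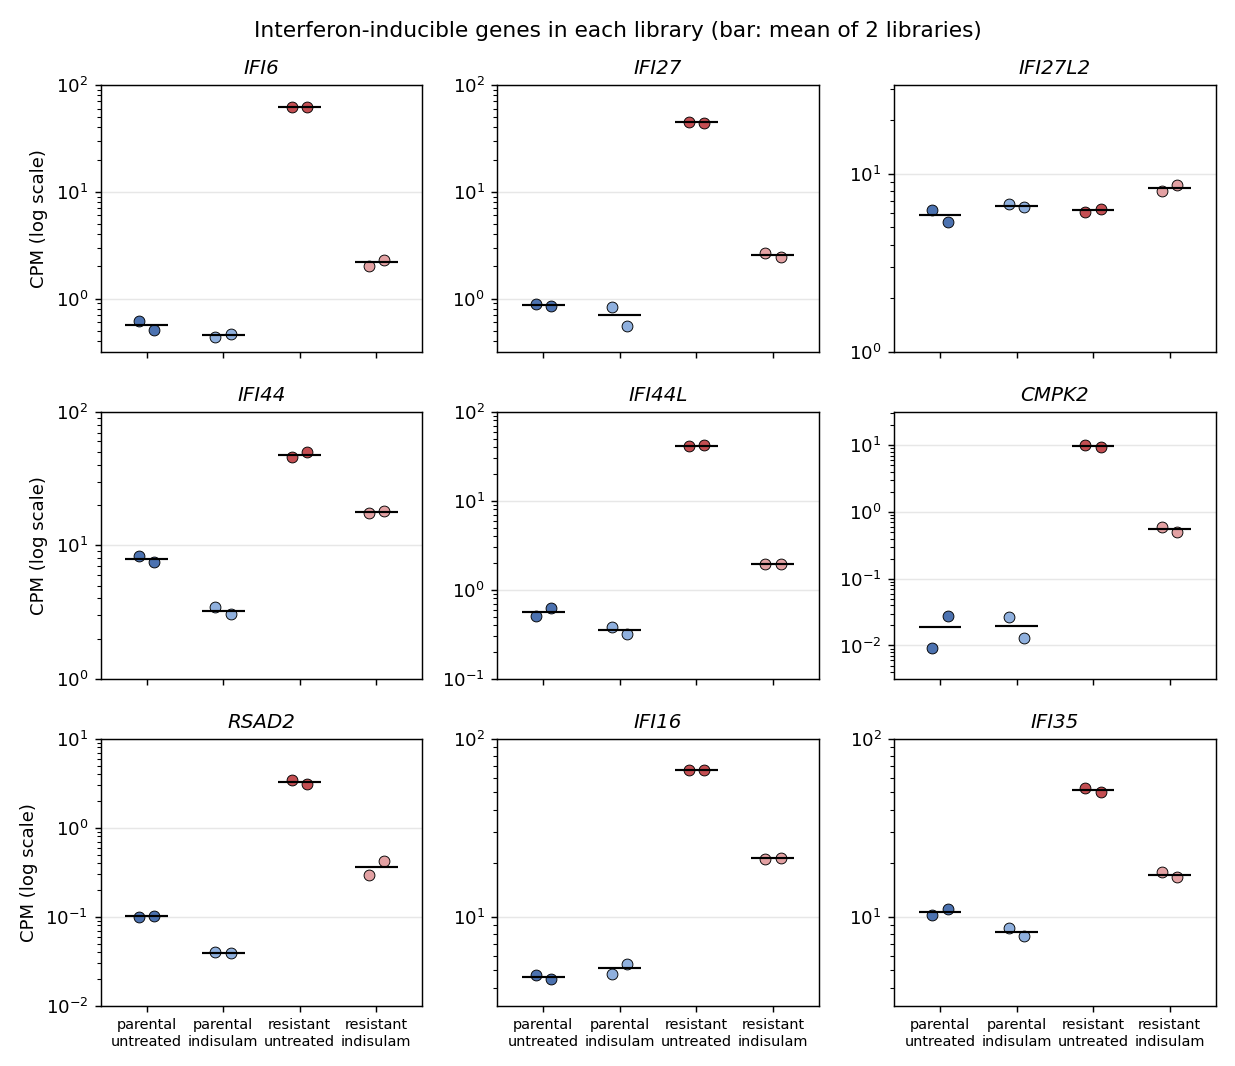
Level of each gene in every library in CPM (y axis, log scale, with its own range for each gene) by group (x axis). Points are libraries and bars the mean of 2. In 8 of 9 panels the resistant untreated libraries are the highest and the resistant indisulam libraries lie between them and the parental libraries, while IFI27L2 stays between 5.40 and 8.63 CPM.

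IFI44L and IFI44 are homologous cytoplasmic proteins induced by interferon, and they differed in how much was expressed to begin with. IFI44L had 0.502 and 0.627 CPM without and 0.387 and 0.323 CPM with indisulam in parental cells, and 41.4 and 42.1 CPM off and 1.93 and 1.93 CPM on the drug in resistant cells. IFI44 already had 8.27 and 7.46 CPM in untreated parental cells, and 3.44 and 3.03 CPM with the drug. In resistant cells it had 45.6 and 49.6 CPM off and 17.4 and 18.0 CPM on the drug. The groups of both genes stood apart from each other. With the drug in resistant cells the log2 fold change was -4.43 (SE 0.0662) for IFI44L and -1.42 (SE 0.0505) for IFI44.

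CMPK2, a mitochondrial nucleotide kinase, and RSAD2 (viperin), the enzyme that turns CTP into a chain-terminating nucleotide, were the least abundant members. CMPK2 had 1 and 3 reads without and 2 and 1 reads with indisulam in parental cells, and 743 and 618 reads off and 40 and 49 reads on the drug in resistant cells. From these reads, resistant cells off the drug had 529 times the parental untreated level, with a 95% exact counting interval from 206 to 1946. On the drug they had 29.4 times that level, with an interval from 11.1 to 110. RSAD2 had 11 and 11 reads without and 3 and 3 reads with indisulam in parental cells, and 257 and 202 reads off and 20 and 41 reads on the drug in resistant cells. Its ratio of resistant to parental untreated cells was 32.5 (interval 21.2 to 52.3). These intervals cover counting error only, since without molecular identifiers several reads can come from 1 molecule. The log2 fold change with the drug in resistant cells was -4.16 (SE 0.127) for CMPK2 and -3.14 (SE 0.168) for RSAD2.

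IFI16, a sensor of DNA in the nucleus and cytoplasm, had 4.70 and 4.48 CPM without and 4.79 and 5.46 CPM with indisulam in parental cells, and 67.1 and 67.0 CPM off and 21.0 and 21.5 CPM on the drug in resistant cells. IFI35, a leucine zipper protein that binds NMI, had 10.2 and 10.99 CPM, 8.62 and 7.84 CPM, 52.9 and 49.9 CPM, and 17.8 and 16.6 CPM in the same order of groups. Both resistant groups stood above both parental groups for each gene. With the drug in resistant cells the log2 fold changes were -1.65 (SE 0.0407) and -1.58 (SE 0.0477), close to that of IFI44 and less than 2 log2 units, whereas the other 5 lowered members lay beyond 3.

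Scaled to the exon length, the order of the genes differed between groups. In parental untreated cells IFI35 led with 5.42 CPM per kb, followed by IFI44 with 3.86 and IFI27L2 with 3.65, and the libraries of the latter pair overlapped. IFI6 followed IFI16 with 0.602 CPM per kb, and IFI27, IFI44L, RSAD2 and CMPK2 followed. In resistant untreated cells IFI6 led with 66.9 CPM per kb, ahead of IFI35 with 26.3 and IFI44 with 23.4, and no neighbours in the order overlapped. In resistant indisulam cells IFI35 and IFI44 led again with 8.79 and 8.69 CPM per kb, overlapping each other, and IFI6 was again next after IFI16, with 2.32. Exon lengths of all annotated isoforms were joined, so genes with long unused exons are understated on this scale.

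The first question was how the genes responded to the drug in parental cells, where the libraries had no part in how they were chosen. IFI44 fell by 1.28 on the log2 scale (SE 0.0819, adjusted p = 5.3e-11), IFI35 by 0.37 (SE 0.0616, adjusted p = 2.3e-05) and IFI44L by 0.67 (SE 0.203, adjusted p = 0.0076). IFI27L2 rose by 0.18 (SE 0.0758, adjusted p = 0.045). IFI6 (log2 fold change -0.32, SE 0.193, adjusted p = 0.2), IFI27 (-0.33, SE 0.168, adjusted p = 0.1) and IFI16 (0.16, SE 0.0699, adjusted p = 0.053) did not pass the test, which was edgeR's quasi-likelihood test with Benjamini-Hochberg adjustment over 16661 genes at 0.05.

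Thus 3 of the 7 genes tested were called lower and 1 higher, where 26.6% of all tested genes were called lower and 31.6% higher. The median log2 fold change of the 7 was -0.33 against 0.01 for all tested genes. Libraries of the groups did not overlap for any of the 7, as for 78.8% of tested genes. The calls of IFI44 and IFI35 were kept with any 1 library left out. IFI44L was no longer called without parental untreated replicate 2 (-0.50, adjusted p = 0.12) or without parental indisulam replicate 2 (-0.56, adjusted p = 0.092), and IFI44 and IFI35 alone were then left. IFI27L2 lost its call in 7 of the 8 fits without 1 library, all but that without parental untreated replicate 1. With the replicate number added to the model as a block, IFI27L2 was not called (adjusted p = 0.057). RSAD2 had 22 reads untreated and 6 on the drug, 2.58 times fewer after scaling (95% exact counting interval 1.02 to 7.79). CMPK2 had 4 and 3 reads.

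**Figure D3:**
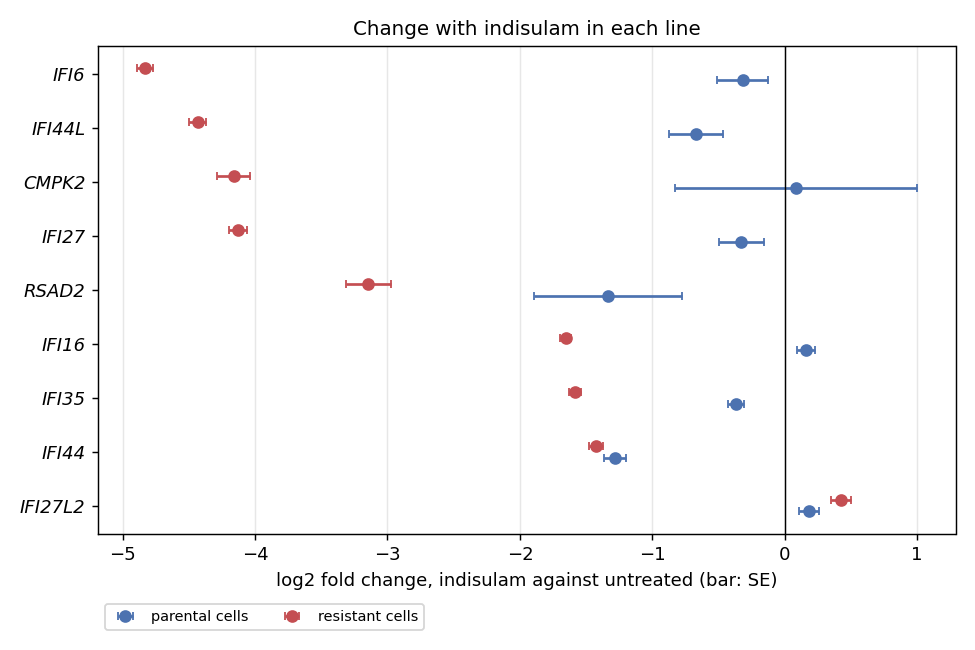
Log2 fold change with indisulam in parental (blue) and resistant (red) cells for each gene, with SE bars from the fit to all 8 libraries. The resistant values chose the genes and carry no test. IFI44 has nearly the same value in both lines (-1.28 and -1.42), whereas IFI6 is at -0.32 and -4.83.

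Set side by side, the drug contrasts of the lines differed by gene, as the plot of both log2 fold changes shows. The contrasts are unlike: 18 h of exposure in parental cells, and continuous drug against a drug holiday in resistant cells. IFI44 differed least among the lowered genes, with a difference of resistant minus parental response of -0.14 (SE 0.100). IFI6, CMPK2, IFI27 and IFI44L had differences of -4.52, -4.25, -3.80 and -3.76. For IFI16 (-1.82), RSAD2 (-1.81) and IFI35 (-1.22) the differences were smaller in size. These values contain the resistant contrast and are a description. By the same rule as above, 7 of 9 members would be called lower, against 27.5% of tested genes, and nothing is read from that count.

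The next question was how far resistant cells were from parental cells without the drug in either. Relative to parental untreated cells, log2 fold changes in resistant untreated cells were 6.79 (SE 0.0715) for IFI6, 6.21 for IFI44L, 5.67 for IFI27, 3.87 for IFI16, 2.60 for IFI44, 2.28 for IFI35 and 0.09 (SE 0.0779) for IFI27L2. As folds, these 7 ranged from 1.07 for IFI27L2 over 4.85 for IFI35 to 111 for IFI6. CMPK2 and RSAD2, with ratios of 529 and 32.5 given above with their intervals, belong at the top and between IFI16 and IFI27. For 8 genes both libraries lay above both parental ones, as for 38.6% of tested genes, and 8 would be called higher, where 30.3% of tested genes were. Since these libraries are shared with the contrast that chose the genes, nothing is read from that count.

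On the drug, 8 of the 9 members were lower in the resistant line than off it, and all 9 were above the level of untreated parental cells. As a share of the off-drug level, the on-drug level was 3.47% for IFI6, 4.62% for IFI44L, 5.64% for CMPK2, 5.74% for IFI27 and 11% for RSAD2. It was 31.7% for IFI16, 33.5% for IFI35 and 37.2% for IFI44. The median of these 8 was 8.36%, and IFI27L2 was at 134%. Over the 4 possible library pairs the share of RSAD2 ran from 8.55% to 13.7% and that of IFI6 from 3.24% to 3.71%. The 4 genes with the lowest shares and the 3 with the highest were well apart from each other.

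Relative to parental untreated cells, resistant indisulam cells had 3.86-fold more IFI6, 2.93-fold more IFI27, 3.42-fold more IFI44L, 4.64-fold more IFI16, 2.25-fold more IFI44 and 1.62-fold more IFI35. All 9 would be called higher, against 32.2% of tested genes, with the medians at 1.77 and -0.01. Against parental cells also on the drug, log2 fold changes were 2.28 for IFI6, 1.87 for IFI27, 2.44 for IFI44L, 2.45 for IFI44, 2.05 for IFI16, 1.06 for IFI35 and 0.33 for IFI27L2. Again all 9 would be called higher, against 34.6% of tested genes. The resistant indisulam libraries are shared with the contrast that chose the genes, so nothing is read from either count. RSAD2 had a ratio of 9.47 (interval 4.11 to 26.8) and CMPK2 of 27.6 (interval 9.16 to 137) in this comparison. For the 8 genes without IFI27L2, the log2 distance from untreated parental cells on the drug was 27.2% to 57.2% of that off it. IFI16 was highest and IFI27 lowest.

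**Figure D4:**
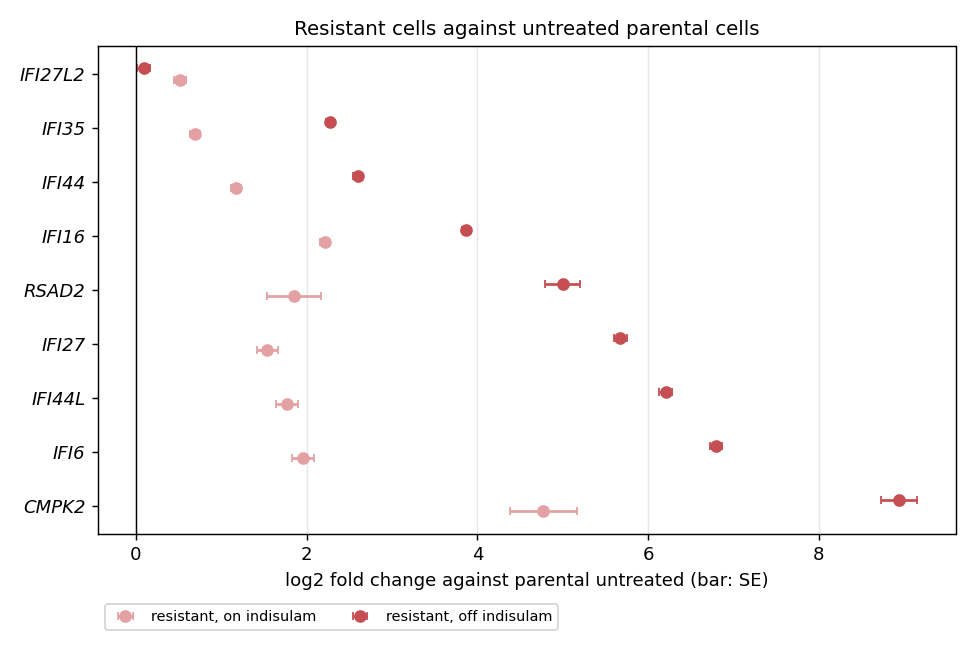
Log2 fold change of resistant cells against untreated parental cells, off indisulam (dark red) and on indisulam (light red), with SE bars. For the 8 genes from IFI35 down to CMPK2 the light points lie between 0 and the dark points, at 0.69 to 4.77. IFI27L2 has the light point to the right of the dark one.

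Of 69 further genes of the interferon pathway, 61 were expressed enough to be tested. ZBP1, MX2, EPSTI1, XAF1 and TRIM22 passed the filter on low counts only through the resistant cells, so their values are a description. In parental cells 28 fell and 13 rose with the drug, where 26.6% and 31.6% of all tested genes were called lower and higher. In resistant cells 42 fell and 10 rose, where 25.8% and 24.9% of all tested genes were called lower and higher. Off the drug, 50 were higher and 8 lower in resistant than in parental cells, where 30.3% of tested genes were higher and 29.9% lower. The median log2 fold change of the 61 was -0.15 in parental and -0.81 in resistant cells with the drug, and 1.91 between the untreated lines, against 0.01, 0.01 and -0.02 for all tested genes. These genes were listed with earlier results of these data known, so their counts are context and no independent evidence.

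Effectors are the antiviral products of the pathway. All 31 were higher in untreated resistant than in untreated parental cells, where 30.3% of all tested genes were called higher. MX2, EPSTI1, XAF1 and TRIM22 had at most 15 reads in a parental library and passed the filter only through the resistant cells. With the drug in resistant cells 30 fell, where 25.8% of all tested genes were called lower. The exception was ISG20 (log2 fold change -0.14, SE 0.0976, adjusted p = 0.23 by edgeR's quasi-likelihood test). In parental cells 17 fell, 4 rose and 10 did not pass the test, where 26.6% of all tested genes were called lower and 31.6% higher. Those 10 include MX2, EPSTI1, XAF1 and TRIM22. OAS3, an enzyme that makes the activator of RNase L, fell by 2.55 on the log2 scale in resistant and by 0.26 in parental cells. EIF2AK2 (PKR), a kinase that halts translation, fell by 1.23 in resistant cells and rose by 0.20 in parental cells. LGALS3BP and IFITM3, the most abundant of the effectors, fell by 0.74 and 0.84 in resistant cells.

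STAT2, a subunit of the complex that binds the repeats above, fell by 0.71 on the log2 scale with the drug in parental cells and by 0.99 in resistant cells. JAK1, a kinase upstream of it, rose by 0.31 and 0.28. TYK2 fell by 0.38 in parental cells and did not pass the test in resistant cells (0.01, adjusted p = 0.96). Of the interferon regulatory factors, IRF1 fell by 0.18 and 0.41 in the parental and resistant cells, IRF3 fell by 0.40 in parental cells and did not pass the test in resistant cells (-0.03, adjusted p = 0.54), and IRF2 rose by 0.26 in parental cells. IRF5 rose by 0.30 in resistant cells.

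Sensors and adaptors were split. RIGI, a sensor of viral RNA, was 2.63 log2 units higher in untreated resistant than parental cells and fell by 0.97 with the drug in resistant cells. MAVS and TBK1, which relay the signal of RNA sensors, rose by 0.21 and 0.19 there, and CGAS, a DNA sensor, did not pass the test (-0.04, adjusted p = 0.32). Of the 6 receptor subunits, 2 fell, 2 rose and 2 did not pass the test in resistant cells with the drug. That is near the shares of all tested genes, 25.8% called lower and 24.9% higher. IFNAR1 fell by 0.18 and IFNGR2 by 0.18, and IFNGR1 and IFNLR1 rose by 0.22 and 0.48. USP18, which blocks signalling at the type I receptor, was 4.58 log2 units higher in untreated resistant cells and fell by 2.45 with the drug. SOCS3 and SOCS1, other inhibitors of the pathway, rose by 0.28 and 0.68 in resistant cells. The SOCS1 value (SE 0.257) rests on 24 and 28 reads off and 42 and 56 reads on the drug.

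Of 8 interferon genes only IFNE passed the filter, and it was lower in untreated resistant than parental cells (log2 fold change -1.65, SE 0.152, adjusted p = 1.4e-09). IFNB1 had 0 and 0 reads without and 0 and 1 reads with indisulam in parental cells, and 9 and 5 reads off and 2 and 5 reads on the drug in resistant cells. IFNL1 had 2 and 1, 0 and 0, 12 and 8, and 5 and 8 reads in the same order. At these counts no test was made. IFNA1, IFNG and IFNL2 had no reads, which allows up to 3 reads per library.

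**Figure D5:**
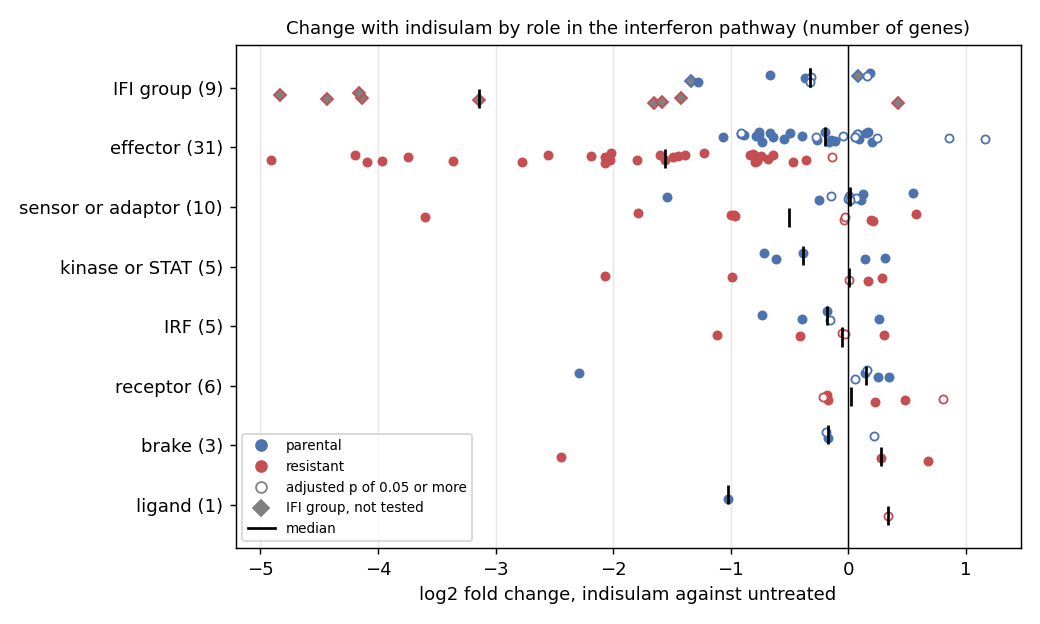
Log2 fold change with indisulam for each tested gene, by role in the interferon pathway (rows, with the number of genes), in parental (blue) and resistant (red) cells. Open circles did not pass the test, black ticks are medians, and diamonds are values given with no test, the 9 genes in resistant cells and CMPK2 and RSAD2 in parental cells (left out of the parental median). The parental circles of ZBP1, MX2, EPSTI1, XAF1 and TRIM22 are a description too, since these genes passed the filter only through the resistant cells. The effectors in resistant cells lie from -4.91 to -0.14, and the receptors in resistant cells from -0.21 to 0.80.

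Relatives of the members that were not chosen behaved in several ways. AIM2, a DNA sensor of the IFI16 family and its neighbour on chromosome 1, had 2 and 2 reads without and 0 and 1 reads with indisulam in parental cells, and 67 and 66 reads off and 37 and 57 reads on the drug in resistant cells. NMI, the partner of IFI35, was 0.54 log2 units higher in untreated resistant cells and fell by 0.23 with the drug in resistant cells. CMPK1, the cytosolic counterpart of CMPK2, was 0.20 log2 units lower in untreated resistant cells and did not pass the test with the drug there (-0.04, adjusted p = 0.26).

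The nearest tested protein-coding genes on either side of the members did not share their size of change in resistant cells. Some of them lay far away, such as RPS7 (3260 kb), ADGRL2 (2642 kb) and ETV3 (1861 kb). The 12 nearest expressed protein-coding neighbours had log2 fold changes with the drug in resistant cells from -0.74 to 0.30. VAT1, 0.151 kb from IFI35, was at -0.13. Between the untreated lines 2 of 12 passed 1 log2 unit, AIM2 (5.58) and RNF144A (2.58), the latter beside RSAD2 and with -0.64 for the drug in resistant cells. AIM2 passed the filter on low counts only through the resistant cells, so its value is a description.

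Across the 8 libraries the levels of IFI6, IFI27, IFI44L, CMPK2 and RSAD2 ran together, with Pearson r of log2(CPM + 1) from 0.9966 to 0.9994 for each pair. IFI44 and IFI16 had r of 0.9012 and 0.9337 with IFI6, and IFI27L2 had -0.1209. The libraries form 4 groups, and the resistant untreated libraries lie far from the others for all of these genes but IFI27L2. Among 9178 other genes with a mean CPM of 8 or more, the most like IFI6 were PLSCR1 (0.9985), AKAP1 (0.9945), OAS1 (0.9926), NXT1 (0.992) and LCN2 (0.9916), and the most like IFI16 were BST2 (0.9986), AMIGO2 (0.9986), TNFSF15 (0.9984), UBE2L6 (0.9978) and GBP3 (0.9976). A high coefficient did not mean a similar size, since AKAP1 went from 59.6 CPM in parental untreated to 69.1 CPM in resistant untreated cells.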

How the data were processed

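The authors deposited raw read counts per gene for each of the 8 libraries. Per the labels, RNA was polyA+ and the libraries stranded. The submitters' processing notes name HISAT2 2.2.1, HTSeq and Picard with GRCh38, and the strand setting and annotation release of the counting are not given in the sources used here. Each table held 60675 genes and 9 lines that name no gene (duplicates, ambiguous and unmapped reads), which stayed out of totals and tests. Ambiguous reads were 4.31% to 4.50% of gene plus ambiguous reads. Symbols came from GENCODE release 44 for 60419 genes.

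Genes were filtered with filterByExpr (16661 left), scaled with TMM and fitted with edgeR 4.0.16 in R 4.3.3 (robust quasi-likelihood, 4 group means, 4 residual degrees of freedom). A gene was called at an adjusted p (Benjamini-Hochberg) under 0.05. The TMM factors also served to scale counts to CPM. With 2 libraries a group, the smallest two-sided p of an exact permutation test is 0.333, so none was run. Mean chi-square per gene between the libraries of a group was 1.96 to 5.80, so none was a copy of another. The code was tested on simulated counts.

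The members and the gene lists were chosen with earlier results of these data known. Named genes were the 9 members, 7 relatives, per role of the pathway list up to 4 genes with the highest mean CPM, the 5 genes most like IFI6 and IFI16 (mean CPM of at least 8, so a log2 of 3 for the mean, whereas the mean of log2(CPM + 1) of OAS1 and AMIGO2 is below 3), and the nearest tested neighbours. A gene that this rule names is not reported here. ISG20, IFNB1, IFNL1, IFNA1, IFNG and IFNL2 were named after their values were seen, since counts turn on them. The alternatives were DESeq2 size factors, the DESeq2 1.42.0 Wald test, library totals, no filter, a minimum mean CPM of 1, a fit to the compared groups alone, a replicate block, an adjusted p under 0.01 and each library left out.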

Additional observations from a re-analysis of the deposited data

Results flagged for a closer look

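By the interaction term of edgeR's quasi-likelihood fit, 7 of the 9 genes would be called lower, against 27.5% of tested genes, and nothing is read from that count. These genes were picked on the resistant response, which that term contains, so the sizes are a description with no test. The difference (resistant minus parental, log2) was -4.52 for IFI6, -3.80 for IFI27, -3.76 for IFI44L, -1.82 for IFI16 and -1.22 for IFI35. For CMPK2 (-4.25) and RSAD2 (-1.81) the parental side rests on few reads.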

How the results depend on the processing

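The number of members called in the parental response, 5 with RSAD2 counted, was 3 with the DESeq2 Wald test, with no filter, with a mean CPM of at least 1, with only the groups compared, with an adjusted p under 0.01 and with the replicate block, and ran from 2 to 5 with 1 library left out. In the fit as reported, 26.6% of all tested genes were called lower and 31.6% higher. RSAD2 passed the filter only through the resistant cells, so nothing is read from its call. IFI44 and IFI35 were called under every alternative run. IFI16 was called with DESeq2 size factors (0.17, adjusted p = 0.044) and without parental indisulam replicate 1 (0.23, adjusted p = 0.02), which also brought IFI27 past the threshold (-0.67, adjusted p = 0.0094). Among the other pathway genes, the 13 that rose in parental cells became 7 with library totals alone and 8 with a mean CPM of at least 1. The 8 that were lower in untreated resistant cells became 5 at an adjusted p under 0.01 and without resistant untreated replicate 1, with a range of 5 to 8 over the libraries. Apart from the filtering of RSAD2, the cause of these shifts was not tested. No value that was called changed sign.

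Samples share only a replicate number: correlations of their deviations from the group means were -0.058 to 0.0272 between groups. Beside the count of 3 above, the block left 6 of 7 members past the threshold for the difference between lines and moved no other count of members. For that difference, RSAD2 also went below the threshold with library totals alone, no filter, an adjusted p under 0.01 and without 6 of the 8 libraries in turn (all but resistant untreated replicate 2 and resistant indisulam replicate 2), and CMPK2 without parental indisulam replicate 1. IFI27L2 came past it under 7 settings (0.27 to 0.36). Depth limits CMPK2 and RSAD2 in parental cells, where no library had over 11 reads of either.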

Other observations

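STING1, the adaptor downstream of CGAS, went against the effectors and was chosen after its values were seen. It had 21.3 and 21.1 CPM without and 21.2 and 21.4 CPM with indisulam in parental cells, and 44.6 and 46.8 CPM off and 69.8 and 66.0 CPM on the drug in resistant cells. The log2 fold change with the drug was 0.57 (SE 0.0366) in resistant cells and 0.01 (SE 0.0425) in parental cells. IRF9, the DNA-binding partner of STAT2, was also chosen after its values were seen. In resistant cells it had 3.98 and 4.73 CPM off and 1.94 and 2.05 CPM on the drug, lower by 1.12 on the log2 scale (SE 0.117). Since both genes were picked on these values, the sizes are a description with no test.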
